A study of Rattus norvegicus with 9 samples.

Results

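Tenascins and the lectican proteoglycans, together with the link proteins that fasten lecticans to hyaluronan, form much of the brain's extracellular matrix. Levels of 10 of their genes were followed here in differentiating neural stem cells (NSCs). The genes were chosen by name: the tenascins Tnn, Tnc, Tnr and Tnxb, the lecticans Ncan, Bcan, Vcan and Acan, and the link proteins Hapln1 and Hapln4. All 10 were found among the 23953 genes of the count table. The set was drawn up with earlier results of these libraries known, above all the level of Tnn, so its values are given as a description, and no p-value of Tnn is printed or used as support.

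In this matrix hyaluronan chains run from the cell surface, lecticans bind them through their N-terminal domain, and link proteins lock that bond. Tenascins are multi-armed glycoproteins that bind lecticans at the other end and so cross-link the meshwork. Astrocytes and oligodendrocyte precursors make most of it, and it surrounds synapses and forms perineuronal nets. Its chondroitin sulfate chains are known as a brake on axon growth in the glial scar.

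The RNA-seq data came from 9 libraries of NSCs from neonatal rat spinal cord, 3 for each of 3 culture conditions. All cells were kept in differentiation medium, either with nothing added (Con), or with exosomes shed by bone marrow mesenchymal stem cells (BMSCs). By the study's methods the donor BMSCs carried an empty lentiviral vector in the Exo group and a lentiviral vector for rat Wnt5a in the pLV-Exo-Wnt5a group, while the labels of the Exo group name no vector. Only the BMSCs that gave the exosomes were transduced, not the sequenced NSCs. In the comparisons with Con, exosomes and the vector of their donor cells cannot be told apart. The methods mention replicate cultures in each group, but no source used here says which libraries came from separate ones, so the p-values measure the spread between these libraries, which may be technical.

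Total counts ran from 32765138 to 40427647 per library. Counts were scaled to a common library total (CPM) with TMM factors, which correct for library composition. A gene with a count of 0 could still have had up to 3 counts, which is 0.0742 to 0.0916 CPM depending on the library, for counting error only. Con replicate 1 stood farthest from the other libraries, with a mean distance of 76.6 on the log2 CPM scale against 59.8 to 66.0 for the rest. Of 12 astrocyte markers all 12 were measured, with a summed level of 7092 to 8252 CPM in Con, 7023 to 7073 in Exo and 8412 to 8811 in pLV-Exo-Wnt5a. Markers of oligodendrocyte precursors and oligodendrocytes summed to 3555 to 3972, 3336 to 3741 and 3097 to 3461 CPM in the same order, and neural stem cell markers to 3168 to 3367, 2691 to 3178 and 3070 to 4016 CPM. Of 12 Hox genes that mark spinal cord, the 4 in the table did not exceed 0.0517 CPM when summed in any library, while 8 forebrain genes summed to between 612 and 764 CPM, so the spinal cord label was not borne out by its markers. The genes carry mouse symbols and NCBI numbers although the cells are labelled rat.

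The tenascins did not share an order of groups. Tnn (tenascin-W, NCBI gene number 329278) was higher in all 3 pLV-Exo-Wnt5a libraries than in any other library, whereas Tnc (tenascin-C, 21923) was lower in pLV-Exo-Wnt5a than in Exo and lower in Exo than in Con. Of the lecticans, Bcan (brevican) had the same order as Tnc, and Ncan (neurocan) lay within a narrow range in all groups. Acan (aggrecan) and Hapln1, both present at fewer than 60 counts per library, were higher in Exo than in Con without overlap. The levels in every library are plotted by group.

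**Figure D1:**
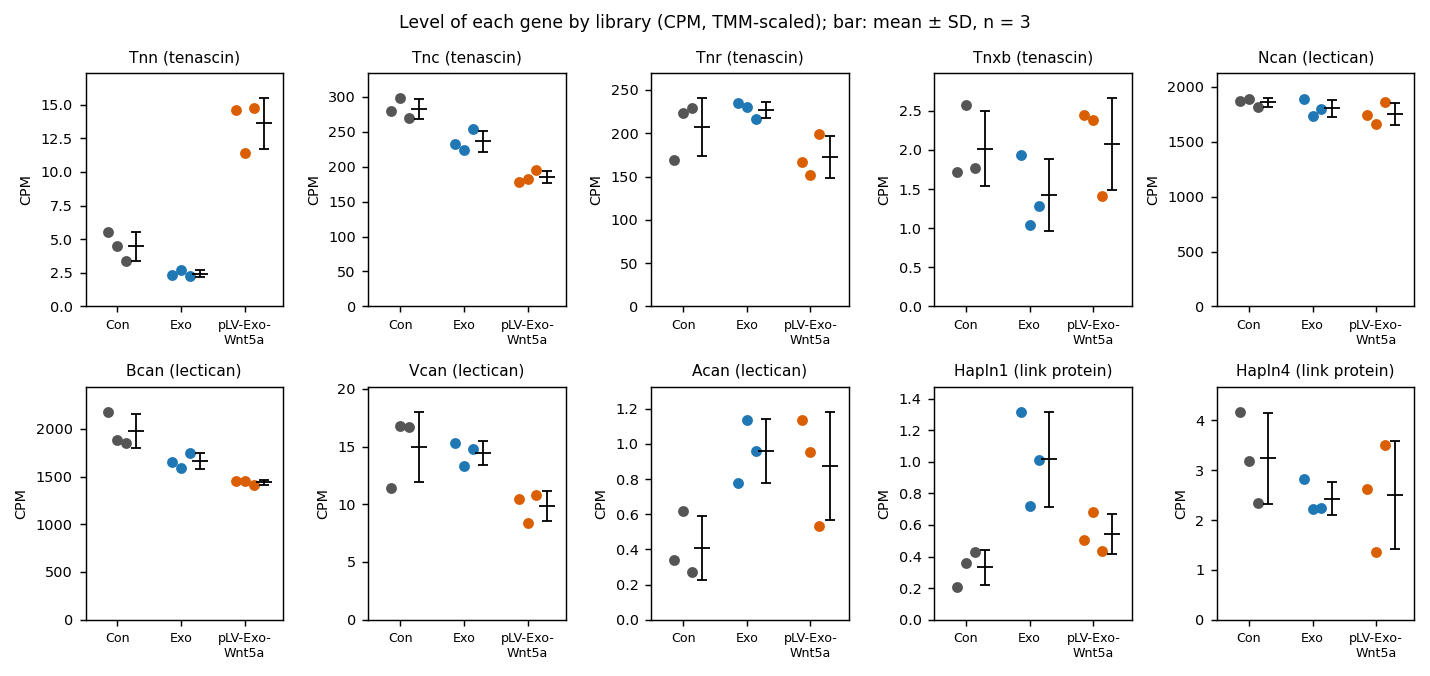
Level of each of the 10 genes in CPM, on linear axes from 0, with 1 point per library and the mean ± SD (n = 3) beside it for Con, Exo and pLV-Exo-Wnt5a. Tnn stands at 11.4 to 14.8 CPM in the 3 pLV-Exo-Wnt5a libraries and at or below 5.50 CPM elsewhere, while the Tnc and Bcan points step down from Con to Exo to pLV-Exo-Wnt5a.

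Tnn encodes the tenascin best known from developing bone and from tumour stroma. Its level was 5.50, 4.49 and 3.38 CPM in Con replicates 1, 2 and 3, 2.33, 2.72 and 2.27 CPM in Exo, and 14.6, 11.4 and 14.8 CPM in pLV-Exo-Wnt5a. The groups did not overlap in any of the 3 comparisons, and the order was Exo, Con, pLV-Exo-Wnt5a from low to high. Behind these levels stood 212, 175 and 111 counts in Con, 90, 110 and 90 in Exo, and 579, 418 and 609 in pLV-Exo-Wnt5a. The means were 4.46 ± 1.06, 2.44 ± 0.246 and 13.6 ± 1.88 CPM (SD, n = 3). The fitted log2 fold change (log2FC) was 2.49 (standard error 0.16) for pLV-Exo-Wnt5a against Exo, a fold of 5.61. It was 1.60 (0.20) for pLV-Exo-Wnt5a against Con, a fold of 3.02, and -0.88 (0.23) for Exo against Con. These comparisons share libraries, so the last is not independent of the first.

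Within a library, the count of Tnn can be set against that of Tnc, which needs no scaling between libraries. The ratio of Tnn to Tnc counts was 0.0158 ± 0.00365 in Con, 0.0104 ± 0.00164 in Exo and 0.0735 ± 0.00995 in pLV-Exo-Wnt5a (SD, n = 3). Both a higher Tnn and a lower Tnc enter the last value. The ratio is compared between groups only, since counts of 2 genes also depend on their lengths.

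The sequence upstream of these 2 genes is given because Tnn was highest and Tnc lowest in pLV-Exo-Wnt5a. The windows are RefSeq's for rat build GRCr8, from 250 bases before to 50 bases after the transcription start. They are printed 5′ to 3′ on the gene's strand, and capitals mark the motif matches described after them. Windows were matched to genes by symbol, and the annotation behind the counts, which carries mouse gene numbers, is not given. The Tnn window is chr13:74919740-74920039 on the minus strand and the Tnc window is chr5:82476082-82476381 on the minus strand.
Tnn: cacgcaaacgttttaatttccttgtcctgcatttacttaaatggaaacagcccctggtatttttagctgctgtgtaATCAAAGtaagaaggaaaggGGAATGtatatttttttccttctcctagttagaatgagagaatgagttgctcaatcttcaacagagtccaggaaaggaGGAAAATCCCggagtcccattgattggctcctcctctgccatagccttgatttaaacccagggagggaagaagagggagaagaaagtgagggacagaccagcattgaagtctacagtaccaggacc
Tnc: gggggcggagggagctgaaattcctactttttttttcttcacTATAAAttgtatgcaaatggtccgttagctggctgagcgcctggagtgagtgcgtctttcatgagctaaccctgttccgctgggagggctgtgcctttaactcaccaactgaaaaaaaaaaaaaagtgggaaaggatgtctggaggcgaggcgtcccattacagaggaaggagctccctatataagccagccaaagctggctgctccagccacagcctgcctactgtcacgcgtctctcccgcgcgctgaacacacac

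In these windows, 6 motifs were searched on both strands after the RNA values were known. They were the TCF/LEF motif CTTTGAT of the β-catenin branch of Wnt signalling, the NF-κB consensus motif GGGRNNYYCC and the STAT motif TTCNNNGAA. The others were the TEAD motif GGAATG, the AP-1 motif TGANTCA and the TATA box TATAAA. N stands for any base, R for A or G, and Y for C or T. In the Tnn window the reverse complement of CTTTGAT was found 174 bases before the start and GGAATG 154 bases before it. The reverse complement of the NF-κB consensus was found there 76 bases before the start, as GGAAAATCCC. In the Tnc window TATAAA was found 208 bases before the start. Only these exact letters were searched, so the tatataag nearer the transcription start of that window was not marked. Which stretch serves as a TATA box was not tested. Among 33469 rat promoter windows of this length, 3.63% held CTTTGAT, 14.2% GGAATG and 14.2% TATAAA. The remaining shares were 7.51% for the NF-κB consensus, 8.87% for TTCNNNGAA and 7.33% for TGANTCA. A single NF-κB form without free letters, tried first and held by 0.111% of windows, had no match in the windows of the genes studied. A match is only a match of letters.

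RefSeq windows were matched for 9 of the 10 genes, all but Tnxb. Of the others, the Ncan window held the reverse complement of TATAAA 57 bases before the start and the Acan window that of GGAATG 11 bases before it and the NF-κB consensus 94 bases before it, and the windows of Tnr, Bcan, Vcan, Hapln1 and Hapln4 held none of the motifs. Base composition also differed between the windows. The Tnr and Tnn windows had a GC content of 38.3% and 43.7% with 0 and 3 CpG sites, the Tnc window 52.3% with 12, and the Acan window 73.0% with 28. Among all windows these GC contents stood at percentiles 8.83, 20.9, 51.7 and 95.1.

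Tnc encodes tenascin-C, made by astrocytes and neural progenitors and abundant in the developing nervous system. Its level was 279, 298 and 270.2 CPM in Con replicates 1, 2 and 3, 233, 223 and 253 CPM in Exo, and 178, 182 and 195 CPM in pLV-Exo-Wnt5a. Every Con library lay above every Exo library, and every Exo library above every pLV-Exo-Wnt5a library. The means were 282 ± 14.1, 236 ± 15.3 and 185 ± 8.95 CPM (SD, n = 3). Tnc fell between Con and pLV-Exo-Wnt5a by 0.62 on the log2 scale (standard error 0.08), to 0.652 of its level, with an adjusted p (Q) of 0.0201 from the edgeR quasi-likelihood fit over all genes tested. The fold stayed inside the study's limit of 2-fold for a differentially expressed gene (DEG). For pLV-Exo-Wnt5a against Exo the log2FC was -0.34 (0.07, edgeR Q = 0.0563), and for Exo against Con it was -0.27 (0.08, edgeR Q = 0.265). Between the exosome groups the Q was 0.000864 by DESeq2 on 2 groups and 0.00679 by DESeq2 on all 9 libraries. It was 0.00274 by edgeR without a filter on low counts and 0.0321 with a replicate block. For Exo against Con the Q was 0.0499 by DESeq2 on all 9 libraries. Among 13 alternative fits (other scaling, filter, tool or model, or 1 library left out) only these 4 and 1 had Q under 0.05. The highest Q was 0.23 between the exosome groups and 0.572 for Exo against Con. Without Con replicate 2 or without pLV-Exo-Wnt5a replicate 1, 2 or 3, the Q for pLV-Exo-Wnt5a against Con was 0.187, 0.157, 0.0958 or 0.153 in edgeR, at log2FC values between -0.65 and -0.58.

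Markers of oligodendrocyte lineage cells also summed to less in pLV-Exo-Wnt5a than in Con, and astrocyte markers to more, by the values given above. Neuron markers summed to 3332 to 3415 CPM in Con, 3420 to 4032 in Exo and 3221 to 4071 in pLV-Exo-Wnt5a. Of 12 neuron markers 11 were higher in Exo than in Con, with a median log2FC of 0.37, and 10 were higher in pLV-Exo-Wnt5a than in Con, with a median of 0.26. All 7 tested microglia and macrophage markers were lower in Exo than in Con, with a median of -0.45 and summed levels of 51.7 to 57.8 against 58.0 to 61.9 CPM. Between the exosome groups, 6 of 7 of these were higher in pLV-Exo-Wnt5a, with a median of 0.30. Lower there were 8 of 12 astrocyte markers (median -0.18), 7 of 11 oligodendrocyte lineage markers (-0.08) and 8 of 12 neuron markers (-0.03). At an edgeR Q under 0.05, 1 astrocyte marker was higher there and 1 neuron marker lower. Of 8 neural stem cell markers 6 were higher there (median 0.064), 1 of them at that Q, while 7 were lower in Exo than in Con (median -0.125). For pLV-Exo-Wnt5a against Con 7 of 11 tested oligodendrocyte lineage markers were lower, with a median log2FC of -0.19, and 8 of 12 astrocyte markers were lower, with a median of -0.11. The astrocyte sum rests largely on Gfap, with a mean of 2539 CPM in Con, 2234 in Exo and 4026 in pLV-Exo-Wnt5a. In bulk RNA, fewer cells of a type and less RNA per cell cannot be told apart, and the part of cell composition in the tenascin and lectican levels was not tested.

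Tnr encodes tenascin-R, the tenascin of oligodendrocyte lineage cells and perineuronal nets. Its level was 169, 224 and 229 CPM in Con replicates 1, 2 and 3, 235, 229.8 and 217 CPM in Exo, and 167, 152 and 199 CPM in pLV-Exo-Wnt5a. The Exo and pLV-Exo-Wnt5a libraries did not overlap, whereas Con replicate 1, the library farthest from the rest, lay among the pLV-Exo-Wnt5a values. The log2FC was -0.38 (standard error 0.09) for pLV-Exo-Wnt5a against Exo, with an edgeR Q of 0.111. This Q was 0.00723 by DESeq2 on 2 groups, 0.00306 by edgeR without a filter and 0.0159 by edgeR without pLV-Exo-Wnt5a replicate 3. These were the only 3 of 13 alternative fits with Q under 0.05, and the highest Q over the fits was 0.374. The log2FC was -0.27 (0.12, edgeR Q = 0.598) for pLV-Exo-Wnt5a against Con and 0.12 (0.11, edgeR Q = 0.564) for Exo against Con, where it came to -0.003 without Con replicate 1.

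Tnxb encodes tenascin-X, known from connective tissue. Its level, read from 42 to 100 counts per library, ranged from 1.71 to 2.57 CPM in Con, from 1.04 to 1.94 in Exo and from 1.41 to 2.45 in pLV-Exo-Wnt5a. All groups overlapped, and the edgeR Q was between 0.427 and 0.981 in the 3 comparisons.

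Tnn and Tnr are near neighbours in the rat annotation GRCr8, with Kiaa0040 as the single gene listed between them. Their fitted differences had opposite signs in pLV-Exo-Wnt5a against Exo, where the log2FC was 2.49 for Tnn and -0.38 for Tnr. Over the 9 libraries their log2 CPM had a Pearson r of -0.764, a description of libraries that fall into 3 groups.

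Among the lecticans, Ncan encodes neurocan, made by neurons and astrocytes of the developing brain. Its level was 1872, 1887 and 1814 CPM in Con, 1889, 1732 and 1798 CPM in Exo, and 1742, 1661 and 1858 CPM in pLV-Exo-Wnt5a. The groups overlapped in all 3 comparisons and the highest library was 1.14 times the lowest. The log2FC was -0.05 (standard error 0.08), -0.03 (0.06) and -0.09 (0.09) for Exo against Con, pLV-Exo-Wnt5a against Exo and pLV-Exo-Wnt5a against Con, with edgeR Q values of 0.755, 0.9 and 0.778.

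Bcan encodes brevican, the short lectican of astrocytes and the adult synaptic matrix. Its level was 2182, 1886 and 1856 CPM in Con, 1652, 1587 and 1752 CPM in Exo, and 1456, 1457 and 1409 CPM in pLV-Exo-Wnt5a. As for Tnc, the 3 groups did not overlap and stepped down from Con to Exo to pLV-Exo-Wnt5a. The means were 1975 ± 180.3, 1664 ± 83.4 and 1441 ± 27.4 CPM (SD, n = 3). Relative to Con the log2FC was -0.26 (standard error 0.09) in Exo and -0.46 (0.10) in pLV-Exo-Wnt5a, and pLV-Exo-Wnt5a relative to Exo gave -0.20 (0.06). The edgeR Q values were 0.284, 0.203 and 0.188, so none of these differences passed the threshold over all genes in that fit. At like folds DESeq2 on 2 groups gave Q values of 0.00306 for pLV-Exo-Wnt5a relative to Con and 0.0489 relative to Exo, and without a filter on low counts edgeR gave 0.00123 relative to Con. With DESeq2 on all 9 libraries Q was 0.000181 relative to Con. Without Con replicate 1, the highest library, the log2FC for pLV-Exo-Wnt5a against Con was -0.38 with an edgeR Q of 0.0174. The Q was under 0.05 in only 4 of 13 alternative fits relative to Con and 1 of 13 relative to Exo. The highest Q over these fits was 0.825 and 0.515.

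Bcan and Ncan were both read from many counts, which limits the counting error of their ratio within a library, though not the spread between libraries. The ratio of Bcan to Ncan counts was 1.06 ± 0.0900 in Con, 0.922 ± 0.0503 in Exo and 0.824 ± 0.0602 in pLV-Exo-Wnt5a (SD, n = 3). The ratios of Exo and pLV-Exo-Wnt5a overlapped, at 0.875 in the lowest Exo and 0.877 in the highest pLV-Exo-Wnt5a library. Tnc and Bcan were the 2 of 10 genes with the full order Con above Exo above pLV-Exo-Wnt5a without overlap, an order held by 72 of 15458 genes, or 0.466%. The opposite order was held by 0 of the 10 and by 24 genes, or 0.155%. This order was looked for after the levels had been seen, and no test was made of it.

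Vcan encodes versican, the large lectican of precursor cells and of growing tissue. Its level was 11.4, 16.8 and 16.7 CPM in Con, 15.4, 13.3 and 14.8 CPM in Exo, and 10.5, 8.34 and 10.8 CPM in pLV-Exo-Wnt5a. All pLV-Exo-Wnt5a libraries lay below all others, but by less than 1 CPM in the case of Con replicate 1. The log2FC was -0.54 (standard error 0.13, edgeR Q = 0.111) for pLV-Exo-Wnt5a against Exo, -0.61 (0.18, edgeR Q = 0.433) for pLV-Exo-Wnt5a against Con and -0.06 (0.16, edgeR Q = 0.871) for Exo against Con. The Q between the exosome groups was 0.00664 by DESeq2 on 2 groups and 0.0264 by edgeR without a filter. That between pLV-Exo-Wnt5a and Con was 0.0395 by DESeq2 on all 9 libraries. In these comparisons only 2 and 1 of 13 alternative fits had Q under 0.05, and the highest Q was 0.326 and 0.98.

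Acan encodes aggrecan, the lectican of cartilage and of mature perineuronal nets, and was read from few counts. There were 13, 24 and 9 counts in Con replicates 1, 2 and 3, 30, 46 and 38 in Exo, and 45, 35 and 22 in pLV-Exo-Wnt5a. In CPM this gave 0.409 ± 0.182, 0.958 ± 0.182 and 0.875 ± 0.310 (SD, n = 3). The Exo libraries lay above the Con libraries, and the pLV-Exo-Wnt5a libraries overlapped with both. The log2FC was 1.20 (standard error 0.43, edgeR Q = 0.283) for Exo against Con and 1.07 (0.48, edgeR Q = 0.595) for pLV-Exo-Wnt5a against Con. Between the exosome groups it was -0.12 (0.38, edgeR Q = 0.933), so its direction is not settled.

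Hapln1 encodes the link protein that ties aggrecan and versican to hyaluronan. It had 8, 14 and 14 counts in Con, 51, 29 and 40 in Exo, and 20, 25 and 18 in pLV-Exo-Wnt5a. In CPM this gave 0.331 ± 0.112, 1.02 ± 0.300 and 0.541 ± 0.128 (SD, n = 3). The 3 groups did not overlap and stood in the order Con, pLV-Exo-Wnt5a, Exo. The log2FC was 1.61 (standard error 0.44, edgeR Q = 0.265) for Exo against Con, -0.89 (0.40, edgeR Q = 0.407) for pLV-Exo-Wnt5a against Exo and 0.71 (0.49, edgeR Q = 0.693) for pLV-Exo-Wnt5a against Con. Hapln1 passed the filter on low counts for the comparisons with Con only through the treated libraries, where it was higher, since 2 of the 3 Con libraries reached its limit.

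Hapln4 encodes the brain link protein that pairs with brevican around inhibitory synapses. Its level was 4.18, 3.18 and 2.34 CPM in Con, 2.82, 2.23 and 2.25 CPM in Exo, and 2.62, 1.37 and 3.51 CPM in pLV-Exo-Wnt5a. The groups overlapped in all 3 comparisons, with edgeR Q values between 0.427 and 0.962. Hapln4 had the widest spread within groups, with an SD of 0.469 on the log2 scale against 0.062 for Ncan.

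In the annotation Hapln4 lies next to Ncan and Hapln1 next to Vcan, so 2 link proteins are neighbours of a lectican. Hapln1 was higher in Exo than in Con without overlap, whereas Vcan overlapped between these groups. The link protein genes Hapln2 and Hapln3, which lie next to Bcan and Acan, were looked at after these values had been seen. Hapln2 had 2 to 16 counts per library and was not tested, and Hapln3 stood at 3.32 ± 0.124, 3.04 ± 0.542 and 2.32 ± 0.623 CPM in Con, Exo and pLV-Exo-Wnt5a (SD, n = 3), with edgeR Q values between 0.601 and 0.755.

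**Figure D2:**
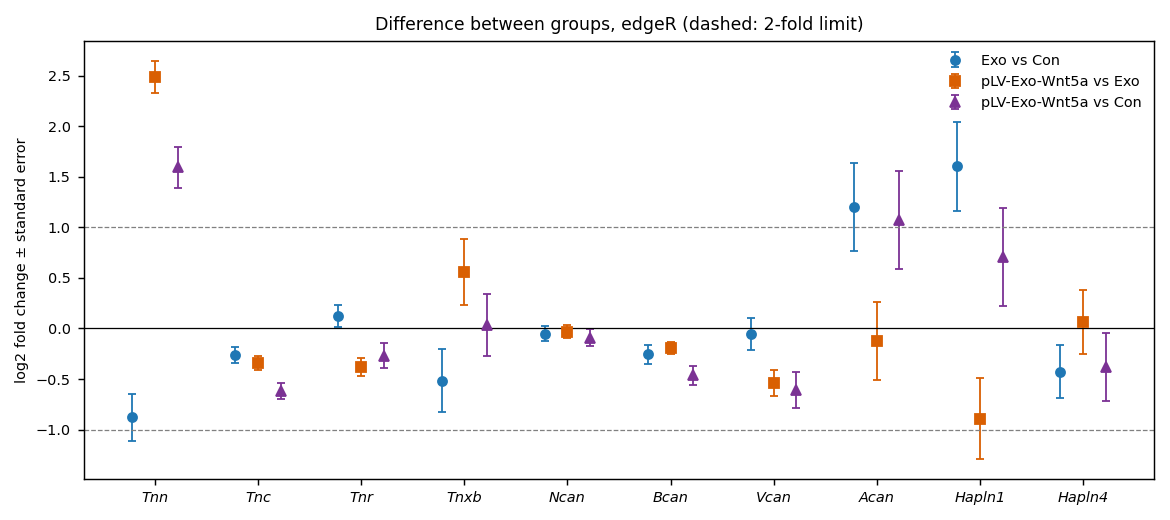
Log2 fold change with its standard error for the 10 genes in the 3 comparisons, from the edgeR fits on 6 libraries each; dashed lines mark 2-fold. Tnn reaches 2.49 for pLV-Exo-Wnt5a against Exo, Tnc and Bcan lie below 0 in all 3 comparisons, and the wide bars of Acan and Hapln1 go with their low counts.

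Counted over the set, DEGs (Q under 0.05 and a fold above 2 or below 0.5) were 0 of 10 for Exo against Con, where 0.00664% of 15070 genes tested were called. DESeq2 on 2 groups also called 0 of the 10 there, and 0.226% of all genes. An unadjusted p under 0.05 was found for 5 of the 10 (Tnn, Tnc, Bcan, Acan and Hapln1) in that comparison, for 6 (Tnn, Tnc, Tnr, Bcan, Vcan and Hapln1) in pLV-Exo-Wnt5a against Exo and for 5 (Tnn, Tnc, Bcan, Vcan and Acan) in pLV-Exo-Wnt5a against Con, where the share of all genes was 14.9%, 12% and 8.35%. Tnn, which entered the choice of the set, is in each of these counts, so nothing is read from them. For pLV-Exo-Wnt5a against Exo 1 of 10 was called, against 0.159% of 15132 genes, and for pLV-Exo-Wnt5a against Con 1 of 10, against 0.0663% of 15089 genes. The called gene was Tnn both times, and nothing is read from it since its level entered the choice of the set. Its call against Con was lost, and the count was 0, when Con replicate 2 or a single pLV-Exo-Wnt5a library (1, 2 or 3) was left out, at log2FC values of 1.60, 1.54, 1.72 and 1.54, and without Con replicate 3 Tnn was called for Exo against Con, where the count was 1. At Q under 0.05 with no fold limit, Tnc was added for pLV-Exo-Wnt5a against Con, where 0.0862% of genes passed. At an unadjusted p under 0.05 with an absolute log2FC above 0.58, 3, 2 and 4 of the 10 passed in the 3 comparisons, against 4.47%, 3.49% and 2.16% of all genes. They were Tnn, Acan and Hapln1, then Tnn and Hapln1, then Tnn, Tnc, Vcan and Acan. Since Tnn is in all 3 counts and Hapln1 passed the filter through the libraries where it was higher, nothing is read from these counts either.

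Groups without overlap were seen for 2 genes higher and 3 lower in Exo than in Con, where 12.4% of all genes tested were lower and 10.9% higher without overlap. The higher genes were Acan and Hapln1 and the lower ones Tnn, Tnc and Bcan. For pLV-Exo-Wnt5a against Exo the counts were 1 higher and 5 lower, where 7.5% of genes were higher and 8.9% lower, and the higher gene was Tnn. For pLV-Exo-Wnt5a against Con they were 2 higher and 3 lower, where 7.67% were higher and 9.41% lower, and the higher genes were Tnn and Hapln1. With Tnn and Hapln1 among these genes, nothing is read from the counts against the shares of all genes. The median log2FC of the 10 genes was -0.16, -0.16 and -0.18 in the 3 comparisons, against 0.00, 0.01 and 0.00 for all genes tested. Together the 10 genes took 0.421% to 0.437% of all counts in the Con libraries, 0.385% to 0.403% in Exo and 0.349% to 0.377% in pLV-Exo-Wnt5a. These shares did not overlap, and they rest mostly on Bcan and Ncan.

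The 5 genes whose log2 CPM followed that of Tnn most closely over the 9 libraries, among 15457 genes compared, were Apba2, Nek6, C4b, S1pr3 and Ifitm3, with a Pearson r between 0.97 and 0.989. The libraries fall into 3 groups and share their scaling, so the r describes a like order of groups and carries no p. Apba2, an adaptor protein of neurons, had the highest r but spanned only 240 to 282 CPM. C4b, a complement component, stood at 43.1, 33.7 and 31.9 CPM in Con, 26.3, 26.7 and 27.2 CPM in Exo, and 79.7, 84.0 and 79.9 CPM in pLV-Exo-Wnt5a. S1pr3, a receptor for sphingosine 1-phosphate, stood at 10.9 to 14.6, 7.70 to 8.97 and 23.8 to 32.9 CPM, and Ifitm3, an interferon-induced membrane protein, at 16.8 to 20.1, 12.1 to 13.9 and 23.8 to 30.1 CPM. Nek6, a mitotic kinase, stood at 51.2 to 58.7, 44.2 to 45.0 and 68.6 to 85.7 CPM in the same order.

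**Figure D3:**
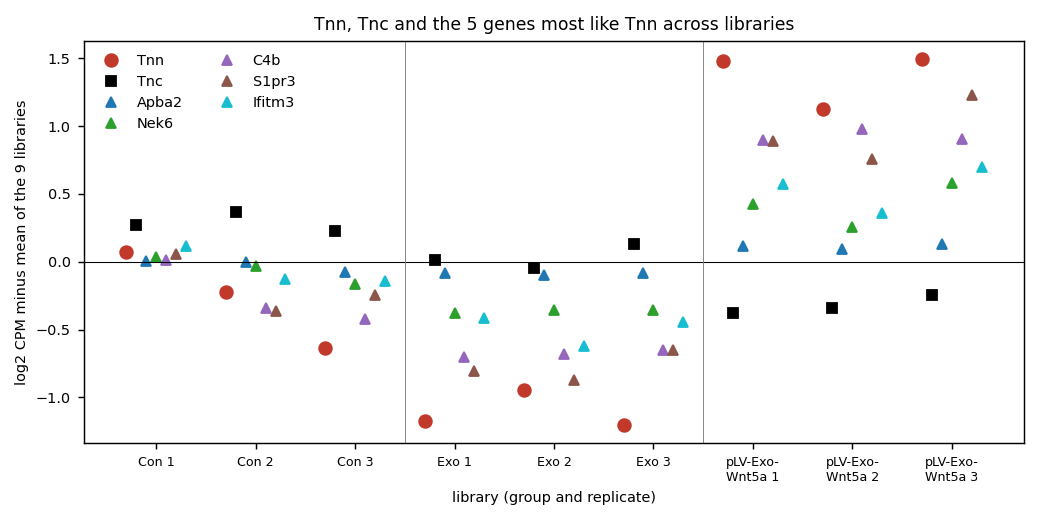
Log2 CPM minus the mean over the 9 libraries for Tnn, Tnc and the 5 genes most like Tnn, with 1 point per gene and library. The 5 genes lie highest in the 3 pLV-Exo-Wnt5a libraries, as Tnn does, with a smaller span, while Tnc lies lowest there.

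The other genes of the perineuronal and hyaluronan matrix were taken as 6 lists of 127 genes in all, of which 125 were in the table and 114 were tested in each comparison. None was a DEG in any of the 3 comparisons in the main edgeR fit, with TMM scaling and the filter on low counts. DESeq2 on 2 groups called 0, 2 (Thbs2 and Timp1) and 1 (Thbs2) of them for Exo against Con, pLV-Exo-Wnt5a against Exo and pLV-Exo-Wnt5a against Con, where it called 0.226%, 0.489% and 0.172% of all genes. In the same order 19, 28 and 10 had an unadjusted p under 0.05 in edgeR, where all genes had 14.9%, 12% and 8.35%. In pLV-Exo-Wnt5a against Exo, 65 of the 114 were higher and 49 lower, with a median log2FC of 0.06.

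Of the receptors and binding partners of tenascins and chondroitin sulfate, 0 of 19 tested genes passed a Q of 0.05 in any comparison in the main edgeR fit. For Exo against Con, pLV-Exo-Wnt5a against Exo and pLV-Exo-Wnt5a against Con, 4, 6 and 2 had an unadjusted p under 0.05. The shares of all genes were 14.9%, 12% and 8.35%. Cntn1, the contactin that binds Tnr, was at 46.4 ± 10.6, 62.7 ± 5.98 and 46.8 ± 7.57 CPM in Con, Exo and pLV-Exo-Wnt5a (SD, n = 3). For pLV-Exo-Wnt5a against Exo it had an edgeR Q of 0.167 and a DESeq2 Q of 0.03 on 2 groups. The edgeR Q was 0.0151 without a filter and 0.0477 without pLV-Exo-Wnt5a replicate 3. Anxa2, an annexin known as a receptor of tenascin-C, was at 6.59 ± 1.23, 6.40 ± 0.667 and 10.1 ± 1.95 CPM. Its log2FC was 0.67 (standard error 0.16, edgeR Q = 0.116, DESeq2 Q = 0.0103 on 2 groups) for pLV-Exo-Wnt5a against Exo, with an edgeR Q of 0.0193 without a filter. Among the other proteoglycans, Ptprz1, the receptor phosphatase whose secreted form is the proteoglycan phosphacan and which binds tenascins, was at 273 ± 54.5, 313 ± 30.6 and 229 ± 32.3 CPM. Its log2FC for pLV-Exo-Wnt5a against Exo was -0.44 (standard error 0.10, edgeR Q = 0.0983, DESeq2 Q = 0.00427 on 2 groups), with an edgeR Q of 0.00125 without a filter.

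Of the hyaluronan genes, 0 of 11 tested genes passed a Q of 0.05 in the main edgeR fit. In the same order of comparisons 2, 1 and 2 had an unadjusted p under 0.05, against 14.9%, 12% and 8.35% of all genes. Cd44, the main hyaluronan receptor, was at 13.3 ± 2.21, 13.7 ± 4.32 and 24.7 ± 7.29 CPM in Con, Exo and pLV-Exo-Wnt5a (SD, n = 3), with an edgeR Q of 0.163 for pLV-Exo-Wnt5a against Exo and 0.263 against Con. Its Q was under 0.05 in 3 of 13 alternatives against Exo, the lowest being 0.00331, and in 4 of 13 against Con, the lowest being 0.000988. Of 20 tested genes for the synthesis and sulfation of chondroitin sulfate chains, 0 passed in any comparison in that fit. An unadjusted p under 0.05 was found for 2, 1 and 0 of the 20, against the same shares of all genes. Chst3, a sulfotransferase for these chains, had a log2FC of -0.31 (standard error 0.10, edgeR Q = 0.265) for Exo against Con.

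Of the proteases that cut lecticans and tenascins and their inhibitors, 0 of 18 tested genes passed a Q of 0.05 in the main edgeR fit. An unadjusted p under 0.05 was found for 2, 7 and 2 of the 18, against 14.9%, 12% and 8.35% of all genes. Adamts4, an aggrecanase that also cuts brevican, was at 29.8 ± 1.17, 22.7 ± 2.05 and 32.4 ± 4.48 CPM (SD, n = 3), with an edgeR Q of 0.265 for Exo against Con and 0.0815 for pLV-Exo-Wnt5a against Exo. By DESeq2 on 2 groups the latter Q was 0.00259, and by edgeR without a filter it was 0.00532. Timp1, an inhibitor of matrix metalloproteinases, was at 1.10 ± 0.179, 0.684 ± 0.143 and 1.97 ± 0.439 CPM. Its log2FC was 1.54 (standard error 0.32, edgeR Q = 0.0691, DESeq2 Q = 0.00169 on 2 groups) for pLV-Exo-Wnt5a against Exo, next to Thbs2 the highest of the list genes. The edgeR Q of Timp1 there was 0.011 without a filter.

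Of the other matrix glycoproteins, 1 of 25 tested genes passed a Q of 0.05 without a fold limit for pLV-Exo-Wnt5a against Exo, where 0.436% of all genes did. An unadjusted p under 0.05 was found for 4, 10 and 1 of the 25 in the 3 comparisons, against 14.9%, 12% and 8.35% of all genes. In pLV-Exo-Wnt5a against Exo 17 were higher and 8 lower, with a median log2FC of 0.22. The lists were chosen with earlier results of these data known, so nothing is read from such counts. Sparcl1, an astrocyte protein also called hevin, fell from 557 ± 41.7 CPM in Exo to 419 ± 12.1 CPM in pLV-Exo-Wnt5a (SD, n = 3), with a log2FC of -0.40 (standard error 0.07, edgeR Q = 0.0288). Its Q was 0.0895 with edgeR on all 9 libraries and between 0.0567 and 0.209 when Exo replicate 2 or 3 or a single pLV-Exo-Wnt5a library was left out. Thbs2, a thrombospondin, was at 3.21 ± 0.458, 2.66 ± 0.925 and 7.75 ± 2.67 CPM in Con, Exo and pLV-Exo-Wnt5a, and its log2FC was 1.56 (standard error 0.30, edgeR Q = 0.0543) for pLV-Exo-Wnt5a against Exo. It was 1.26 (0.26, edgeR Q = 0.209) for pLV-Exo-Wnt5a against Con. By DESeq2 on 2 groups Thbs2 was a DEG in both, with Q values of 3.73e-05 and 0.00143, and over the 13 alternatives it passed in 6 and in 4. Of 21 tested other proteoglycans 0 passed in the main edgeR fit. An unadjusted p under 0.05 was found for 5, 3 and 3 of the 21, against the same shares of all genes. Gpc5, a glypican, had a log2FC of 0.74 (edgeR Q = 0.265, DESeq2 Q = 0.045 on 2 groups) for Exo against Con, with an edgeR Q of 0.0426 without a filter. Its log2FC was -0.53 (edgeR Q = 0.296) for pLV-Exo-Wnt5a against Exo. Spock1, a testican, had a log2FC of 0.36 (standard error 0.08, edgeR Q = 0.265, DESeq2 Q = 0.0358 on 2 groups) for Exo against Con, with an edgeR Q of 0.0413 without a filter.

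**Figure D4:**
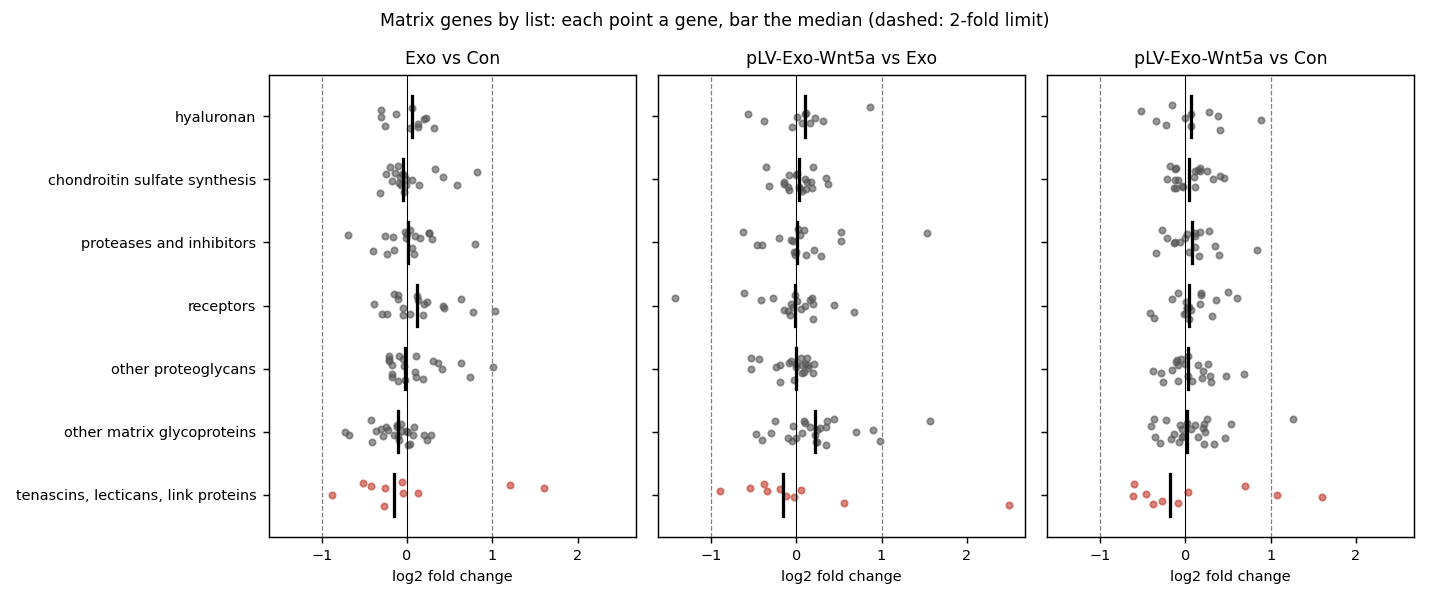
Log2 fold change of each tested gene in the 6 lists of other matrix genes (grey) and of the 10 tenascins, lecticans and link proteins (red) in the 3 comparisons, with a bar at each median and dashed lines at 2-fold. In pLV-Exo-Wnt5a against Exo the list medians lie between -0.01 and 0.22, and Tnn at 2.49 lies above every other gene drawn.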

How the data were processed

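RNA-seq was done on 9 libraries of NSCs, 3 each in Con, Exo and pLV-Exo-Wnt5a, with groups and replicate numbers taken from the sample labels. The table that the authors deposited holds raw whole-number counts by gene. The paper names HISAT2 for alignment, whereas the submitters' processing notes name Bowtie2, RSEM 1.3.1 and DESeq2 1.4.5. RSEM gives estimated counts, and if it made the table these were rounded before deposit. The genome build, the annotation and the use of strand are not given in the sources used here.

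For each comparison of 2 groups, genes were kept by filterByExpr, scaled by TMM and fitted in edgeR 4.0.16 (R 4.3.3) with its quasi-likelihood test, and Q is the Benjamini-Hochberg adjusted p over all genes tested. Standard errors came from the test statistics. Single-gene CPM used TMM factors over all 9 libraries, and log2 CPM a prior count of 2. The members, the 6 matrix lists and the markers were chosen with earlier results of these data known. Genes named from the lists are those with Q under 0.05 or from the 2 smallest p in a list and comparison. The alternatives were RLE scaling, no filter, at least 10 counts in every library, DESeq2 1.42.0 on 2 groups or all libraries, edgeR on all libraries, other thresholds, a replicate block and leaving out each library. The steps were tested on simulated data. Total counts of 32765138 to 40427647 set the precision. Replicates were no repeat deposits: chi-square divided by its degrees of freedom was 7.38 to 48.9 between them. Gene lengths were not used here, so levels, and ratios of the counts of 2 genes, were compared only between groups.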

Additional observations from a re-analysis of the deposited data

How the results depend on the processing

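DEGs among the 10 genes numbered 0, 1 and 1 for Exo against Con, pLV-Exo-Wnt5a against Exo and pLV-Exo-Wnt5a against Con. They became 3, 2 and 4 at an unadjusted p under 0.05 with an absolute log2FC above 0.58, and 2 for the last at Q under 0.05 without a fold limit. Leaving out 1 library gave 0 to 1, 1 to 1 and 0 to 1. Among the other matrix genes the count was 0 each time in the main edgeR fit. For pLV-Exo-Wnt5a against Exo it became 2 without a filter, 2 by DESeq2 on 2 groups or on all libraries, 1 with the replicate block, 1 without a fold limit and 7 at the unadjusted threshold. For pLV-Exo-Wnt5a against Con it became 1 without a filter, by either DESeq2 fit or with the block, and 4 at the unadjusted threshold, and for Exo against Con 2 at that threshold. Leaving out 1 library gave 0 to 1, 0 to 1 and 0 to 0 in the order Exo against Con, pLV-Exo-Wnt5a against Exo and pLV-Exo-Wnt5a against Con. Over all genes the counts of 1, 24 and 10 became 50, 69 and 33 without a filter, 34, 74 and 26 by DESeq2 on 2 groups, 26, 61 and 38 by DESeq2 on all libraries, and 674, 528 and 326 at the unadjusted threshold. For Exo against Con there were 2 with edgeR on all libraries and 0 with the replicate block, for pLV-Exo-Wnt5a against Exo 66 without a fold limit, and for pLV-Exo-Wnt5a against Con 20 with the block. Leaving out 1 library gave 0 to 138, with 138 coming without Con replicate 3, 11 to 27 and 1 to 12. The causes were not tested. Same-numbered libraries did not deviate together, with r from -0.203 to 0.063 over 9 pairs and 2 of 9 libraries closest to their own number. No pairing by number was seen, but with 3 libraries per group these values cannot exclude one.

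Of the single-gene values of the 10 genes, 368 kept direction and side of the DEG threshold (Q and fold), 1 passed it anew, 4 lost it and 13 turned direction. At Q under 0.05 alone, 19 passed anew and 8 lost it. Of those of the matrix genes named, 455 kept both and 13 passed the DEG threshold anew, all for Thbs2 or Timp1, while at Q under 0.05 alone 43 passed anew and 6 lost it, the latter all for Sparcl1. Direction turned where the difference was small: leaving out 1 library gave log2FC ranges of -0.003 to 0.195 for Tnr and -0.218 to 0.033 for Vcan in Exo against Con, -0.082 to 0.009 for Ncan, -0.355 to 0.13 for Acan and -0.274 to 0.352 for Hapln4 in pLV-Exo-Wnt5a against Exo, and -0.104 to 0.255 for Tnxb in pLV-Exo-Wnt5a against Con. With the replicate block Hapln4 was at -0.017. Acan and Hapln1 had too few counts for the filter of 10 counts in every library where Con entered. At 8 to 51 counts per library, these 2 genes had standard errors of 0.384 to 0.485 on the log2 scale.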
